A study of Homo sapiens with 4 samples.

Results

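The 27 genes described here encode 20 enzymes that build cholesterol, SREBP2 with 5 proteins that control it, and 1 sterol carrier. They were taken by symbol from a list of the pathway. This list and the other lists below were chosen with earlier results of these data known. All 27 are among the 15378 genes that passed the filter on low counts, of 35585 genes in all. Some enzymes of the pathway and its uptake receptors are not analysed here. The samples are microglia-like cells (iMGL) grown from WTC11, an established line of human induced pluripotent stem cells. WT libraries come from unedited cells and S1KO libraries from cells of the same line edited to lack SHIP1, an inositol 5-phosphatase whose gene is INPP5D. Each genotype has 2 libraries and no treatment is named in the labels. Per the design text each genotype comprises 2 clones, but the labels do not say which library is which clone. The p-values therefore reflect only how far these libraries scatter, and a clone and its genotype cannot be told apart.

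Cells make cholesterol from acetyl-CoA through mevalonate, isoprenyl diphosphates, squalene and lanosterol. SREBP2 is a transcription factor held in the endoplasmic reticulum by its escort SCAP and the INSIG proteins when sterols are plentiful. When sterols run low SCAP carries SREBP2 to the Golgi, where the proteases encoded by MBTPS1 and MBTPS2 release its active part. That part switches on most genes of the pathway and, among the regulators, INSIG1. In the brain cholesterol is made locally, and microglia take up much of theirs as debris and lipoproteins.

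Promoters of 5 of the genes are shown because SREBP2 is known to act at target promoters with the CCAAT-binding factor NF-Y. They span from SREBF2, which carries a full sterol response element match, to CYP51A1, whose stretch holds none of these letters. The CYP51A1 stretch lies inside the span of the gene given below, so bases before that span were not searched. Each line gives the 200 bases before the RefSeq start (GRCh38.p14), 5′ to 3′ on the gene's strand. Capitals mark TCACNCCA or TCACNCCAC (core letters of a sterol response element, the first contained in the second) and CCAAT, on either strand. The stretches are chr22:41832905-41833104 (SREBF2, plus), chr4:165327469-165327668 (MSMO1, plus), chr7:155297678-155297877 (INSIG1, plus), chr5:111512536-111512735 (STARD4, minus) and chr7:92134478-92134677 (CYP51A1, minus).
SREBF2: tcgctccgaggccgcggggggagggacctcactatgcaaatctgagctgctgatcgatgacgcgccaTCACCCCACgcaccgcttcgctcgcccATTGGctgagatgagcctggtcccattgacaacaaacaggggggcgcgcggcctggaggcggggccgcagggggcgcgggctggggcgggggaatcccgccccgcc
MSMO1: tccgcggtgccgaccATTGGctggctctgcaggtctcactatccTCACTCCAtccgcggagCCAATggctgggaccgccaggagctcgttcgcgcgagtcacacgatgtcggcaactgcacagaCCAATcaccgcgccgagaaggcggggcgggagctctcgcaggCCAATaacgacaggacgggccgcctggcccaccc
INSIG1: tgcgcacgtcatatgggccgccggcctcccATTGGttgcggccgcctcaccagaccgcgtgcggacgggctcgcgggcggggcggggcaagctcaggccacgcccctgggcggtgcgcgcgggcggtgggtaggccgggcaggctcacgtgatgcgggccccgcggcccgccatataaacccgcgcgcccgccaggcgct
STARD4: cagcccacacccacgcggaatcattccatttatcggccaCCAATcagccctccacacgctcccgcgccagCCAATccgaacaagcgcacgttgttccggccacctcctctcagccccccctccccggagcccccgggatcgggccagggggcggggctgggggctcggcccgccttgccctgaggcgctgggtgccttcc
CYP51A1: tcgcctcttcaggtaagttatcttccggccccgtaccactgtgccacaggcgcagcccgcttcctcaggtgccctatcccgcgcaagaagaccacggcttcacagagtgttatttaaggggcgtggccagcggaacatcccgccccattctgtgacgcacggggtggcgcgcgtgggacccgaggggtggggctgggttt

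RefSeq windows of 300 bases (250 before and 50 after a start) were at hand for 24 of the 27 genes, and not for ACAT2, FDFT1 and SQLE. TCACNCCAC was found in 1 of the 24, at position -133 of SREBF2, against 1.55% of tested genes with a window and 1.13% of all windows. The shorter TCACNCCA was found in 3 (SREBF2, MSMO1 and MVK), against 4.92% of tested genes. CCAAT, or ATTGG on the other strand, was found in 17 of the 24 (70.8%) against 42.7% of tested genes and 34.6% of all windows. MSMO1 held 4 such matches and STARD4 held 2. GGGCGG, the letters bound by SP1, was found in 20 of the 24 (83.3%) against 73.9% of tested genes. These are letter matches in short windows, and binding was not measured.

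The targeted transcript was lower in both libraries labelled S1KO: INPP5D stood at 355.6 and 441.0 CPM (CPM being the count relative to the library size after TMM scaling) in WT 1 and WT 2 and at 81.0 and 97.6 in S1KO 1 and S1KO 2 (edgeR adjusted p = 0.0184). The libraries held 21516813 to 25927881 estimated counts. Of these, mitochondrial transcripts made up 14.2% (WT 1), 18.9% (WT 2), 52.3% (S1KO 1, with a 95% Wilson interval of 52.30 to 52.34 that covers counting error only) and 39.2% (S1KO 2). The 27 sterol genes had a median of 337 counts in S1KO 1, the lowest of the libraries, and 1312 in WT 1, the highest. Fits without mitochondrial genes and copies are given in the closing section. Beyond these fits the part of the mitochondrial share in the results was not tested. Summed over 10 microglial markers the level was 3546 CPM (WT 1), 3999 (WT 2), 2586 (S1KO 1) and 2678 (S1KO 2). The markers did not all move alike. For AIF1, SPI1, GPR34 and ITGAM the genotypes overlapped. For CSF1R, P2RY12, CX3CR1, PTPRC, TYROBP and C1QA the S1KO pair lay below the WT pair, as did 25.8% of all genes. A summed list of 10 mesenchymal markers, led by collagens, stood at 3704 CPM in WT 1 against 8.22 in WT 2, 14.8 in S1KO 1 and 30.5 in S1KO 2. WT 1 thus stands apart from the other libraries, and fold changes against WT 1 alone and WT 2 alone are given below. The pluripotency list stayed between 3.14 and 8.36 CPM and the blood progenitor list between 2.02 and 8.72 CPM in every library. Of 4 granulocyte markers 3 were at 0 in all 4 libraries, and the list reached at most 0.89 CPM.

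Levels of the sterol pathway were lower in S1KO at most steps, but no single gene passed the threshold over all genes tested. Of the 27 genes 25 had a negative log2 fold change, with a median of -0.75, while 51.3% of all tested genes were negative, with a median of -0.016. The quasi-likelihood test of edgeR called 0 of the 27 at an adjusted p under 0.05, where it called 0.936% of all genes, 0.15% lower and 0.787% higher. At an unadjusted p under 0.05, 16 of the 27 were lower and 0 higher, against 9.21% of all genes lower and 10.2% higher. Because the genes were chosen with earlier results known, such counts are a description and not a test of the list. DESeq2 called 12 of them lower, against 3.27% of all genes, and edgeR with no filter on low counts called 14, against 3.45%. For 20 of the 27 the S1KO pair lay wholly below the WT pair, as did 25.8% of all genes. GGPS1 alone had its S1KO pair wholly above, as did 26.0% of all genes. In bulk RNA fewer cells of a type and less RNA per cell cannot be told apart. The 17 genes with CCAAT in the promoter window had a median log2 fold change of -0.76. The 7 without (PMVK, CYP51A1, LBR, SCAP, INSIG2, MBTPS1 and MBTPS2) had -0.39. For TCACNCCA the medians were -0.75 in the 3 genes with it and -0.75 in the 21 without. For GGGCGG they were -0.76 in 20 genes and -0.55 in 4. Differences between these groups were not tested.

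Because the WT libraries differed, the plot of levels by library shows how each gene separates. Over the 27 genes the median log2 difference of WT 1 from WT 2 was 0.50, with 23 genes higher in WT 1, whereas over all tested genes the median was -0.018 and 48.3% were higher in WT 1. The median distance between the WT libraries, without regard to sign, was 0.51 for the sterol genes and 0.30 for all genes. Between the S1KO libraries it was 0.15 for the sterol genes and 0.26 for all genes. The S1KO libraries therefore lay closer together on this pathway than the WT libraries did. The 4 genes that were not higher in WT 1 were INSIG1, IDI1, SCAP and GGPS1. WT 1 is also the library with the mesenchymal transcripts, and their part in its sterol levels was not tested.

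**Figure D1:**
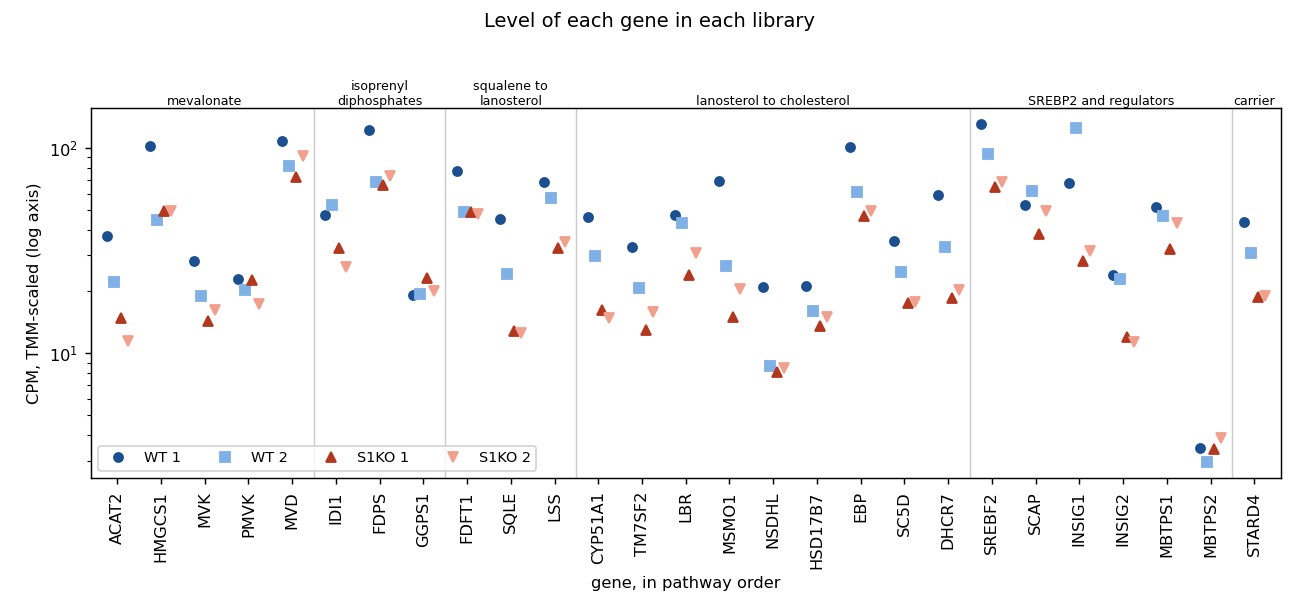
Level of the 27 sterol genes in each library (vertical axis, TMM-scaled CPM on a log scale), in pathway order along the horizontal axis, with 1 point per library. WT 1 is the highest library for most enzymes, while the S1KO points lie close together and INSIG1 is highest in WT 2.

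Against each WT library alone, 10 genes were lower in S1KO past the threshold in both fits: ACAT2, IDI1, SQLE, LSS, CYP51A1, LBR, DHCR7, INSIG1, INSIG2 and STARD4. In these fits the lone WT library is assumed to vary like the S1KO group. For the sterol genes that group was the tighter one, with a median distance of 0.15 against 0.51 within WT. Both fits also use the same S1KO libraries, so they are not independent. Over all genes tested 2.18% were lower in both fits. Another 10 genes (HMGCS1, MVK, FDPS, FDFT1, TM7SF2, MSMO1, NSDHL, EBP, SC5D and SREBF2) passed against WT 1 and did not pass against WT 2. Whether the fits differ for these genes was not tested. Their log2 fold changes were -1.95 to -0.68 against WT 1 and -0.58 to 0.14 against WT 2. The remaining 7, PMVK, MVD, GGPS1, HSD17B7, SCAP, MBTPS1 and MBTPS2, passed in neither fit. In all, 20 passed against WT 1 (6.67% of all genes) with a median of -0.98, and 10 against WT 2 (6.95% of all genes) with a median of -0.49. For 8 genes (IDI1, SQLE, LSS, CYP51A1, LBR, INSIG1, INSIG2 and STARD4) the gap between the lower WT and the higher S1KO library was wider than the gap within WT, which held for 13.1% of all genes.

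**Figure D2:**
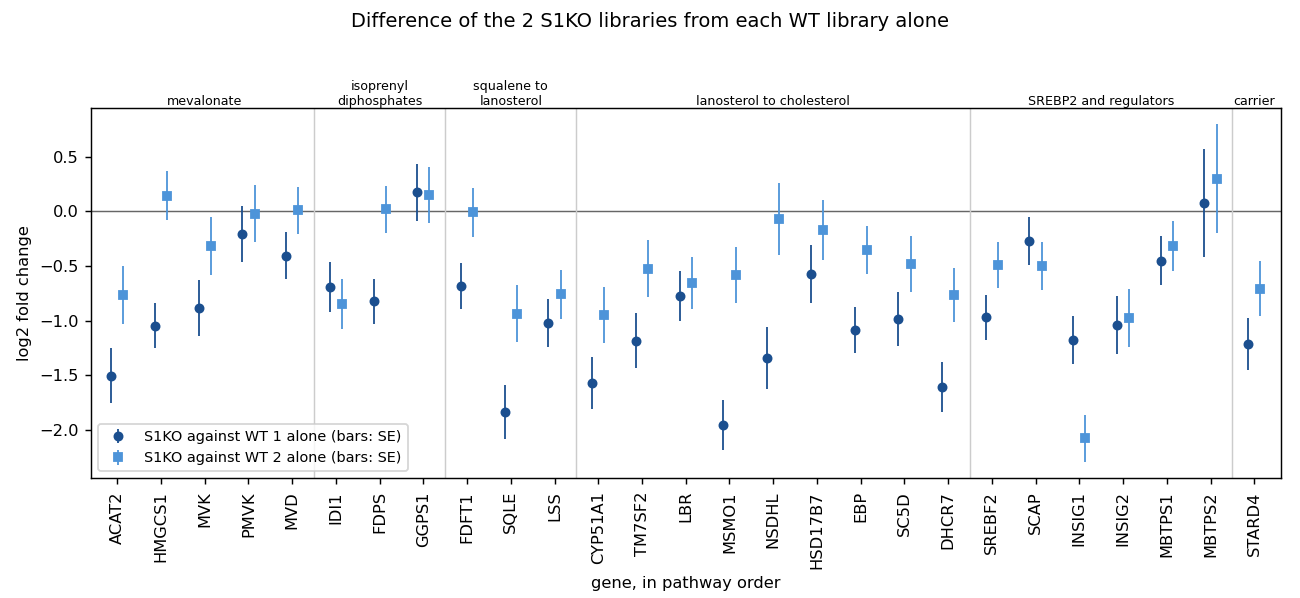
Log2 fold change of both S1KO libraries against WT 1 alone (circles) and WT 2 alone (squares), with bars of 1 SE, for the 27 genes in pathway order. HMGCS1, FDPS, FDFT1, MVD and NSDHL lie near 0 against WT 2, while SQLE, CYP51A1, DHCR7 and both INSIG genes lie well below 0 against either library.

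The mevalonate steps turn acetyl-CoA into the isoprenoid building block. Their 5 genes had a median log2 fold change of -0.57 in the fit of all 4 libraries, -0.88 against WT 1 and -0.021 against WT 2. ACAT2, which joins acetyl-CoA units (ENSG00000120437, chromosome 6, 159760328 to 159779055, GRCh38, plus strand), stood at 37.1 CPM (WT 1), 22.3 (WT 2), 14.8 (S1KO 1) and 11.4 (S1KO 2). The groups did not overlap, and the log2 fold change was -1.18 ± 0.30 SE (edgeR adjusted p = 0.116). ACAT2 shares 397 exonic bases with TCP1 on the opposite strand. No source used here says if strand was kept, so reads in those bases cannot be assigned.

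MVK, mevalonate kinase (chromosome 12, 109573255 to 109598117, plus strand), had 28.2 CPM (WT 1), 19.1 (WT 2), 14.3 (S1KO 1) and 16.3 (S1KO 2), a log2 fold change of -0.63 ± 0.25 SE (edgeR adjusted p = 0.243). With the effective length offset it was -0.27. MVK shares 306 exonic bases with MMAB on the opposite strand. HMGCS1, the cytosolic HMG-CoA synthase, had 101.9 CPM in WT 1 alone and 44.8 to 49.5 in the other 3 libraries, and its log2 fold change of -0.57 ± 0.36 SE was -1.04 against WT 1 and 0.14 against WT 2. PMVK and MVD, which phosphorylate and decarboxylate mevalonate phosphates, had log2 fold changes of -0.12 and -0.21, and their groups overlapped.

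At the isoprenyl diphosphate steps the 3 genes differed in sign. IDI1, the isomerase of the building block (chromosome 10, 1039152 to 1049170, minus strand), had 47.3 CPM (WT 1), 52.5 (WT 2), 32.4 (S1KO 1) and 26.2 (S1KO 2). Its groups stayed apart against either WT library, and the log2 fold change was -0.77 ± 0.19 SE (edgeR adjusted p = 0.108). FDPS makes farnesyl diphosphate (chromosome 1, 155308748 to 155320666, plus strand) and was at 123.0 CPM in WT 1 and 68.6 in WT 2, against 65.8 and 73.1 in S1KO. Its groups overlapped, the log2 fold change was -0.46 ± 0.28 SE (edgeR adjusted p = 0.417), and against WT 2 it was 0.017. Each of 8 named FDPS pseudogenes held at most 42.3 estimated counts in any library, where FDPS held 976 to 3441. GGPS1, which makes geranylgeranyl diphosphate for protein prenylation, had 19.2 CPM (WT 1), 19.5 (WT 2), 23.2 (S1KO 1) and 20.2 (S1KO 2), a log2 fold change of 0.16 ± 0.19 SE. With the length offset it was -0.031, and GGPS1 shares 1422 exonic bases with TBCE on the same strand, so its reads are uncertain.

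The squalene steps commit carbon to sterols. SQLE, squalene epoxidase, an oxygen-using and tightly controlled step (chromosome 8, 124998497 to 125022283, plus strand), had 45.3 CPM (WT 1), 24.3 (WT 2), 12.8 (S1KO 1) and 12.6 (S1KO 2). The S1KO libraries were nearly equal and both below WT, with a log2 fold change of -1.45 ± 0.31 SE (edgeR adjusted p = 0.0933). LSS, which closes the ring to lanosterol (chromosome 21, 46188141 to 46228824, minus strand), had 68.4 CPM (WT 1), 56.95 (WT 2), 32.5 (S1KO 1) and 34.8 (S1KO 2). The log2 fold change was -0.89 ± 0.18 SE (95% interval -1.32 to -0.47, edgeR adjusted p = 0.0832). LSS was the 1 sterol gene that passed with the effective length offset, at -1.30, where 0.137% of all genes passed lower. Of its transcripts 9 are copies on alternate contigs, and their counts were added. FDFT1, squalene synthase, was at 77.4 CPM in WT 1 and between 47.9 and 48.8 in the other 3 libraries.

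From lanosterol to cholesterol all 9 genes had an S1KO pair wholly below the WT pair, as did 25.8% of all genes. Their median log2 fold change was -0.84 with 4 libraries, -1.18 against WT 1 and -0.52 against WT 2. CYP51A1, the lanosterol demethylase (chromosome 7, 92112151 to 92134803, minus strand), had 45.9 CPM (WT 1), 29.8 (WT 2), 16.2 (S1KO 1) and 14.8 (S1KO 2), so S1KO held 40.9% of the WT level on the fitted scale. The log2 fold change was -1.29 ± 0.25 SE (95% interval -1.90 to -0.68, edgeR adjusted p = 0.0824). CYP51A1 shares 2844 exonic bases with AC000120.2 on the same strand, so the division of reads between them is uncertain. AC000120.2 held at most 1.55 estimated counts in any library, where CYP51A1 held 240 to 1283. DHCR7, the last reductase of one branch (chromosome 11, 71428193 to 71452868, minus strand), had 59.3 CPM (WT 1), 33.1 (WT 2), 18.6 (S1KO 1) and 20.4 (S1KO 2). Both S1KO values lay well below the lower WT value, and the log2 fold change was -1.25 ± 0.29 SE (edgeR adjusted p = 0.103).

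MSMO1, the C4-methyl oxidase, differed most between the WT libraries: 68.9 CPM in WT 1 and 26.7 in WT 2, against 15.0 and 20.5 in S1KO. The log2 fold change was -1.95 against WT 1 and -0.58 against WT 2. TM7SF2 and LBR both encode C14 sterol reductases, LBR being also the lamin B receptor of the nuclear envelope. TM7SF2 had 32.8 CPM (WT 1), 20.8 (WT 2), 13.0 (S1KO 1) and 15.8 (S1KO 2). Protein-coding transcripts held 59.7% (WT 1), 30.7% (WT 2), 6.90% (S1KO 1) and 35.1% (S1KO 2) of TM7SF2 counts. The log2 fold change of TM7SF2 was -0.89, and -1.96 with protein-coding transcripts only (edgeR adjusted p = 0.357). LBR had 46.9 CPM (WT 1) and 43.2 (WT 2) against S1KO values of 24.0 and 30.7. Of this pair only LBR passed against WT 2, and a difference between them was not tested. EBP, the sterol isomerase, was at -0.76 with 4 libraries and -0.35 against WT 2. SC5D, the C5 desaturase, was at -0.75 and -0.48. Of the genes that remove C4 groups, NSDHL was at -0.84 and -0.070, and HSD17B7 at -0.39 and -0.17. Protein-coding transcripts held from 14.6% (S1KO 2) to 30.8% (S1KO 1) of HSD17B7 counts, and with these only HSD17B7 was at -0.68. NSDHL was at 21.1 CPM in WT 1 and between 8.09 and 8.72 in the other libraries, so that its groups were barely apart.

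Among the 27 genes the lowest fold change belonged to a regulator. INSIG1, an anchor of SCAP that SREBP2 itself induces (ENSG00000186480, chromosome 7, 155297776 to 155310235, plus strand), had 67.5 CPM in WT 1, 125.7 in WT 2, 28.2 in S1KO 1 and 31.4 in S1KO 2. Unlike most enzymes it was highest in WT 2, and both S1KO libraries lay far below either WT library. The log2 fold change was -1.70 ± 0.30 SE (95% interval -2.43 to -0.96, edgeR adjusted p = 0.0687), with -1.18 ± 0.22 SE against WT 1 and -2.08 ± 0.21 SE against WT 2. INSIG2, its paralogue (chromosome 2, 118088452 to 118110997, plus strand), was even within each genotype, at 24.0 CPM (WT 1), 23.0 (WT 2), 11.99 (S1KO 1) and 11.4 (S1KO 2). The log2 fold change was -1.01 ± 0.19 SE (95% interval -1.47 to -0.54, edgeR adjusted p = 0.0798). It was -1.04 against WT 1 and -0.97 against WT 2. Protein-coding transcripts held 26.0% (WT 1), 34.5% (WT 2), 36.1% (S1KO 1) and 21.9% (S1KO 2) of INSIG2 counts. Processed transcripts held the rest. With protein-coding transcripts only, INSIG2 was at -1.08 (edgeR adjusted p = 0.281).

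SREBF2, the gene of SREBP2 itself (ENSG00000198911, chromosome 22, 41833079 to 41907308, plus strand), had 130.1 CPM (WT 1), 93.4 (WT 2), 64.6 (S1KO 1) and 68.3 (S1KO 2). Both S1KO libraries were below both WT values, and the log2 fold change was -0.75 ± 0.20 SE (edgeR adjusted p = 0.13). The escort SCAP had 52.8 CPM (WT 1), 61.9 (WT 2), 38.2 (S1KO 1) and 49.2 (S1KO 2), with groups just apart (-0.39 ± 0.20 SE). MBTPS1, the site-1 protease, was at -0.39 ± 0.20 SE. MBTPS2, the site-2 protease, was low everywhere, at 2.97 to 3.85 CPM, and at 0.18 ± 0.36 SE. MBTPS2 shares 1093 exonic bases with the intronless YY2 on the same strand. STARD4, a soluble carrier that moves sterol between membranes (chromosome 5, 111496033 to 111512590, minus strand), had 43.8 CPM (WT 1), 30.8 (WT 2), 18.8 (S1KO 1) and 18.9 (S1KO 2). The log2 fold change was -0.98 ± 0.22 SE (edgeR adjusted p = 0.0981), and the S1KO libraries were nearly equal.

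Transcript shares within a gene are given as values. DHCR7-202 held 37.3% of DHCR7 counts in WT 1, with a 95% Wilson interval of 35.1 to 39.7, while WT 2 had 73.7% there (71.0 to 76.3). In S1KO it held 1 of 276 counts (0.362%, 0.064 to 2.02) and 0 of 433, which allows a share of up to 0.693%. DHCR7-201 took 98.2% and 95.6% in S1KO against 60.2% and 21.6% in WT. Both have 9 exons and the same 1425 coding bases. They differ in the first exon, which spans 71448290 to 71448435 in DHCR7-201 and 71448313 to 71448393 in DHCR7-202, on the minus strand of chromosome 11. The intervals cover counting error only and, here and for the genes that follow, not the division of reads between similar transcripts. Among 58 transcripts of the sterol genes with a mean share of at least 10% of a gene that had 100 counts in every library, these 2, complementary shares of 1 gene, were the ones whose genotypes lay at least 30 percentage points apart without overlap. That is 3.45% of the 58, against 4.13% of such transcripts over all genes, so the sterol genes did not exceed the background. DHCR7-201 held most counts in WT 1 as in S1KO, and the WT libraries differed widely from each other.

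Another 3 genes are given as values, chosen after their shares were seen. SQLE-206, with 1437 coding bases against 1722 in SQLE-201, held 66.9% and 72.4% of SQLE counts in WT and 41.1% and 43.3% in S1KO. INSIG1-203, with 534 coding bases against 831 in INSIG1-201, held 23.2% in WT 1, 58.7% in WT 2, 0 of 418 counts in S1KO 1 (up to 0.718% allowed) and 28.9% in S1KO 2. By these estimates INSIG1-201 had 1430 and 1553 counts in WT 1 and WT 2, and INSIG1-203 had 438 and 2310, and the split also differed between the S1KO libraries. Transcripts of MBTPS1 that retain an intron held 76.6% and 76.8% of its counts in WT and 55.0% and 60.0% in S1KO. With protein-coding transcripts only, MBTPS1 turned from -0.39 to 0.49.

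**Figure D3:**
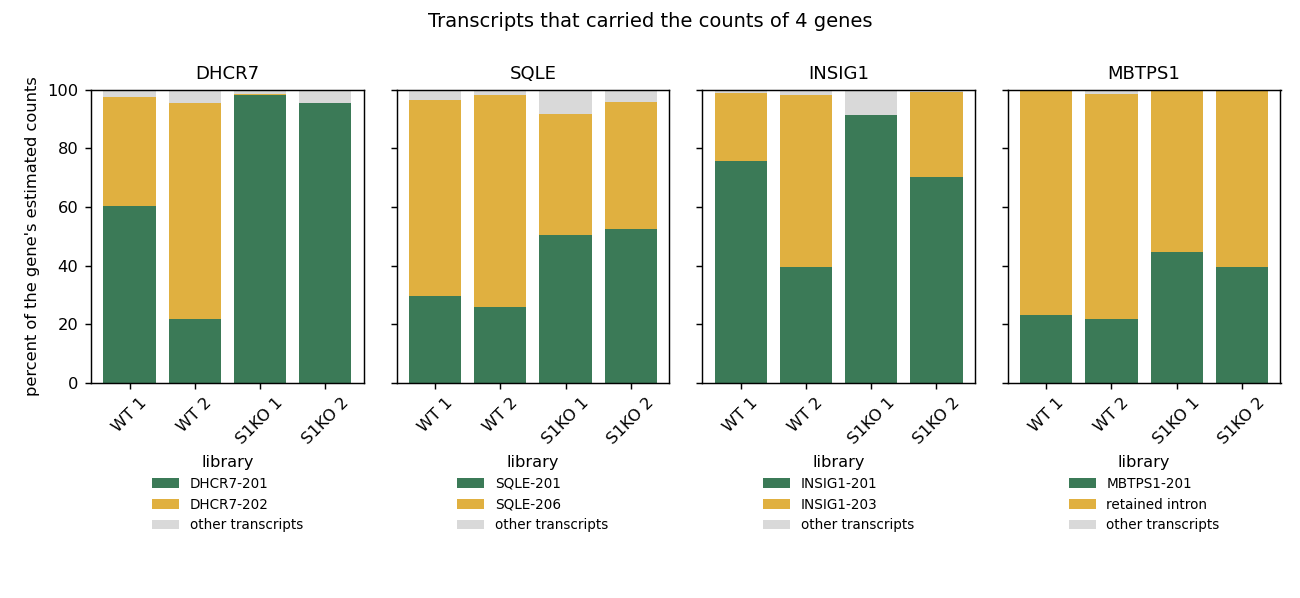
Share of each gene's estimated counts (vertical axis, percent) by transcript in the 4 libraries (horizontal axis), for DHCR7, SQLE, INSIG1 and MBTPS1. DHCR7-202 is nearly missing from both S1KO bars, SQLE-206 and the MBTPS1 retained-intron transcripts are smaller there, and INSIG1-203 is largest in WT 2.

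Genes that work beside the sterol enzymes were also taken from lists of the pathway, and none of their tested genes passed the threshold in edgeR. The microsomal electron donors and sterol scaffolds had a median log2 fold change of -0.52 (7 of 8 negative), and all 8 were higher in WT 1 than in WT 2. PGRMC1, a heme-binding partner of CYP51A1, had 24.4 CPM (WT 1), 15.4 (WT 2), 10.2 (S1KO 1) and 10.1 (S1KO 2) (-0.97 ± 0.28 SE, edgeR adjusted p = 0.143). The genes that use isoprenyl diphosphates had a median of -0.41 (9 of 13 negative). RABGGTB, a subunit of the RAB prenyltransferase, was at -0.56 ± 0.16 SE (edgeR adjusted p = 0.143) and ZMPSTE24, a prenyl-protein protease, at -0.60 ± 0.20 SE (edgeR adjusted p = 0.182).

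The genes of sterol-dependent degradation in the endoplasmic reticulum had a median of -0.33 (10 of 12 negative). The ubiquitin ligase gene SYVN1 had 63.3 CPM (WT 1), 60.3 (WT 2), 33.0 (S1KO 1) and 40.5 (S1KO 2) (-0.75 ± 0.18 SE, edgeR adjusted p = 0.103). MARCH6, the ligase that removes squalene epoxidase, was at -0.57 ± 0.18 SE (edgeR adjusted p = 0.167). With the effective length offset MARCH6 was at -0.080. Sterol traffic and esterification genes had a median of -0.24 (6 of 9 tested negative), with SOAT1, which esterifies cholesterol, at -0.59 ± 0.21 SE (edgeR adjusted p = 0.204) and GRAMD1A, a sterol transporter at membrane contacts, at -0.30 ± 0.16 SE (edgeR adjusted p = 0.345). GRAMD1C did not pass the filter on low counts. At an unadjusted p under 0.05 the counts of lower genes were 5 of 8, 4 of 13, 5 of 12 and 1 of 9 in the order given here, with 0 higher in each, against 9.21% of all genes lower and 10.2% higher.

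**Figure D4:**
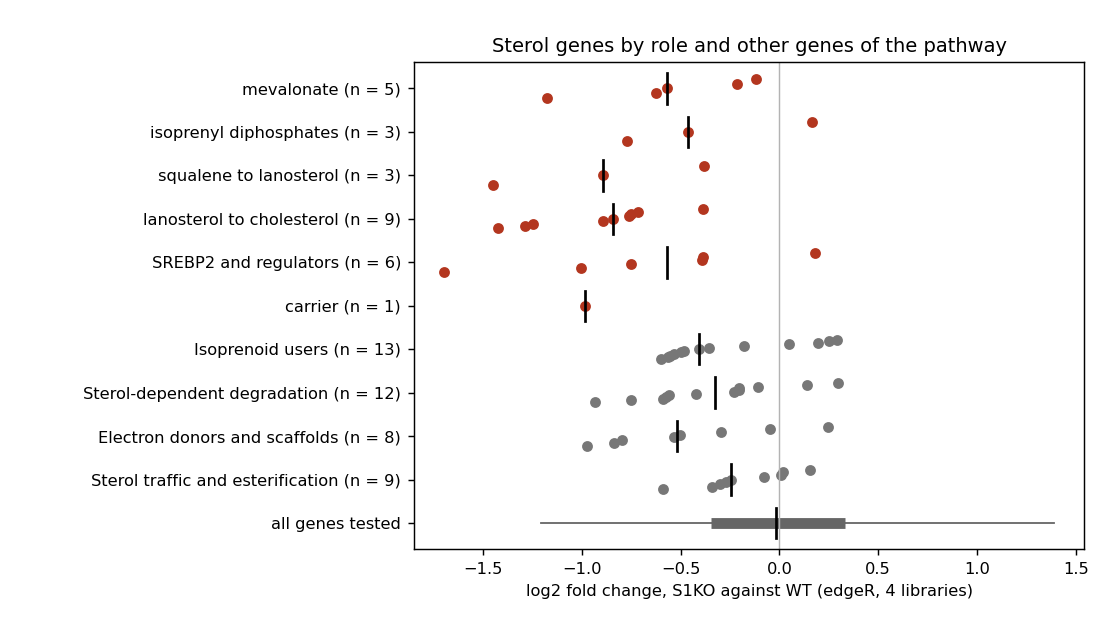
Log2 fold change of S1KO against WT (horizontal axis, edgeR on 4 libraries) for each sterol gene by role (red) and for the other pathway genes by list (grey), 1 point per gene with a black line at the median. For all genes tested the thick bar spans the middle 50% and the thin line the middle 90%. The red points lie mostly between -1.70 and -0.38. The medians of the grey lists, -0.52 to -0.24, lie below that of all genes. They overlap the red medians: electron donors and scaffolds (-0.52) lie below the isoprenyl diphosphate steps (-0.46).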

How the data were processed

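Poly-A RNA was sequenced as paired reads of 150 bp, per the labels' protocols. The submitters' processing notes name kallisto and hg38 for the authors' quantification, with neither a version nor a transcript set in the sources used here. Each library has 1 deposited table that lists, per the file headers, an estimated count, a TPM and an effective length (another value) for every transcript. TPM is relative to all transcripts of a library, so a larger mitochondrial share lowers all the rest. GENCODE 29 gave gene symbols, by which transcripts were added up: 169797 matched by identifier and 15521 by symbol, while 3435 without a gene name (0.323% to 0.643% of counts) were left out. Sums were rounded and passed through filterByExpr (15378 of 35585 genes). TMM factors were 1.31 (WT 1), 1.22 (WT 2), 0.654 (S1KO 1) and 0.957 (S1KO 2). The 2-sided test was glmQLFTest of edgeR 4.0.16 (R 4.3.3) on a fit of genotype alone, adjusted by Benjamini-Hochberg over all tested genes at 0.05. SEs are those the test statistic implies, and 95% intervals use them. The test was checked on simulated data. Fits against 1 WT library leave the other out. The genes and lists were chosen with earlier results of these data known. All 27 genes are named; values in every library are given for the 2 of smallest p per role and for SREBF2, and, chosen after their values were seen, for other genes where a library decides the value; from each other list the 2 genes of smallest p are named, except 1 that is not reported here. Alternatives were DESeq2 1.42.0 as test or for scaling, the filter dropped or made stricter (1 CPM or more in 2 libraries with a mean TPM of 1 or more), a block for the replicate number, an effective length offset, limma 3.58.1 on log2(TPM + 1) or log2(TPM + 0.1), mitochondrial genes and their nuclear copies left out, protein-coding transcripts only, and each library left out. Transcript shares used genes with at least 100 counts in every library.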

Additional observations from a re-analysis of the deposited data

How the results depend on the processing

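The median log2 fold change of the 27 genes stayed negative in all 15 alternatives, and was -1.58 and -1.68 in limma on log2(TPM + 1) and log2(TPM + 0.1), where the median of all genes moved from -0.016 to -0.78 and -0.97. Without each library in turn it ran from -0.98 to -0.49. The number of the 27 called lower was 0 in the main edgeR fit, 12 with DESeq2, 14 with no filter and 1 with the effective length offset. It was 22 and 21 in limma on log2(TPM + 1) and log2(TPM + 0.1). On log2(TPM + 1) without mitochondrial genes and copies it fell to 0, and the median of the 27 was -0.60. The number was also 0 with DESeq2 scaling, the stricter filter, the replicate block and protein-coding transcripts only. In edgeR without mitochondrial genes and copies it was 0 as well. With a library left out it was 20 without WT 2, 10 without WT 1 and 0 without either S1KO library. Such fits assume that the lone library of a genotype varies like the other genotype. Over all genes 121 were higher and 23 lower, against 649 and 503 with DESeq2, 585 and 777 with no filter, 174 and 49 with the stricter filter, 133 and 2760 or 120 and 2518 in limma on TPM with a pseudocount of 1 or 0.1, 270 and 28 on TPM without mitochondrial genes, 1000 and 1069 without WT 1, 1016 and 1025 without WT 2, and 0 with protein-coding transcripts only, without S1KO 1 or without S1KO 2 (edgeR, with 2250, 1365 and 1845 at an unadjusted p under 0.05). With the replicate number as a block 0 genes were called, with 2892 at an unadjusted p under 0.05, and the median of the 27 was -0.73. Same-numbered libraries deviated with a correlation of 0.023 over genes. That rests on 1 difference per genotype, so it cannot show whether the numbers pair libraries. Of 404 values of single genes 294 kept direction and side, 100 newly passed and 10 turned sign: HMGCS1 (0.14), MVD (0.0074) and FDPS (0.017) without WT 1, PMVK (0.050) without S1KO 2 (with a library left out these ran from -1.04 to 0.14, -0.42 to 0.0074, -0.82 to 0.017 and -0.33 to 0.050), MBTPS1 (0.49) with protein-coding transcripts only, GGPS1 (-0.031) with the length offset, and on TPM GGPS1 (-0.94 and -1.01) and MBTPS2 (-0.34 and -0.69), a scaling that lowered the median of all genes; on TPM without mitochondrial genes GGPS1 (0.055) and MBTPS2 (0.18) kept their sign. The cause was not tested, beyond fewer samples or transcripts where a setting leaves them out. With 2 libraries per genotype and 51 counts for the lowest gene in its shallowest library, smaller differences could not be told from replicate spread.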
